A study of Mus musculus with 6 samples.

Results

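The chemokine ligand genes were followed across 3 groups of mouse samples that the submitters label as spinal cord neurons, profiled by RNA sequencing. They are the protein-coding genes whose symbol is Ccl, Cxcl, Cx3cl or Xcl followed by a number and at most one letter, and 37 of the 35275 genes in the deposited tables met that rule. The annotation holds 44 such genes, and those missing from the tables were not analysed here. Each group had 2 libraries. By the labels, IG was the untreated control, NG was mechanically injured, and TG was mechanically injured and then incubated with 75% hydrogen. All 3 groups were labelled as neurons of the spinal cord from mice of the ICR strain, an outbred stock, at postnatal day 3, grown in complete DMEM, a standard culture medium. The time between injury and harvest is not given in the sources used here. Nothing in the labels ties the libraries of a group to separate cultures or animals, so the p-values below rest on a spread between libraries that may be technical only.

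Chemokines are small secreted proteins that guide migrating leukocytes through G protein-coupled receptors. Inflammatory chemokines are switched on by cytokines and tissue damage, many of them through the transcription factor NF-kB, and recruit neutrophils, monocytes or T cells. Homeostatic chemokines are made steadily and place cells within tissues, and in the nervous system Cxcl12 and Cx3cl1 link neurons, glia and the vasculature. Most chemokine genes lie in clusters that arose by gene duplication.

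Levels are normalised reads, that is, reads assigned to a gene divided by the size factor of the library. The deeper library of each group is called A and the shallower B. Libraries held 15749447 to 23911141 reads assigned to genes, with a read for 20627 to 21267 genes, and 1 read was worth 0.774 to 1.205 normalised reads. Mitochondrially encoded transcripts took 17.2% and 14.2% of the reads of the NG libraries and 4.66% to 5.64% of those of IG and TG, and the part of this difference in the results was not tested. No targeted gene was available to check the group labels, so the names control and injured rest on the labels alone. Neuron markers were read in every library, but so were markers of other cells. Gfap of astrocytes ranged from 47358 to 73737 normalised reads over the libraries, Alb of liver had 12178 and 11346 in IG and at most 37.9 elsewhere, and Acta1 of skeletal muscle and Fabp4 of fat had 36951 and 41951 and 17970.5 and 15791 in NG. The name neurons is thus only the label of these samples. A gene is called higher or lower at a limma adjusted p under 0.05 over 24511 genes, and fold changes are log2 differences of normalised reads plus 1, with their standard error (SE). In bulk RNA such as this, fewer cells of a type and less RNA per cell cannot be told apart.

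Chemokine transcripts differed in both directions between NG and IG. The neutrophil attractants Cxcl1, Cxcl2 and Cxcl3 were nearly absent from NG, and Cxcl13, Ccl8 and Cxcl9 were seen mainly there. TG was labelled as injured as well, and the part of injury in these differences was not tested. Of the 36 ligand genes with a read, 13 were lower in NG than in IG and 11 were higher. Across all genes tested, 20.4% were called lower and 19.7% higher. Between NG and TG, 10 ligand genes were higher in TG and 12 were lower, against 22.2% and 23.1% of all genes. Between IG and TG, 1 was higher in TG and 5 were lower, against 4.16% and 7.18% of all genes. The median log2 fold change of the 36 was 0.17 for NG minus IG, -0.28 for TG minus NG and -0.15 for TG minus IG, where the medians over all genes were 0.0, 0.0 and 0.01. The comparisons of NG with IG and of TG with NG share the NG libraries, so their values for a gene stand side by side below and are not independent of each other. In the authors' deposited table, 19 ligand genes had an adjusted p under 0.05 for NG against IG, 20 for TG against NG and 6 for TG against IG. The shares of all genes called in the authors' deposited tables were 31.0%, 37.5% and 11.1%.

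Of the 37 ligand genes, 29 reached 10 normalised reads in at least 1 library and are described by class. The other 8 stayed below that level in every library. Their highest values were 4.82 for Xcl1, 3.87 for Cxcl17, 3.62 for Ccl1, 2.92 for Ccl20, 2.41 for Ccl27b, 1.14 for Cxcl15 and 0.972 for Ccl26, and Ccl21b had no read. A pair of these was called all the same. Ccl20, the attractant of Ccr6-bearing cells, had 0 reads in IG, 5 in NG and 1 in TG. It was called higher in NG than in IG. For TG minus NG it was called lower, with a log2 fold change of -1.44 ± 0.49 (adjusted p = 0.041). Cxcl17, an epithelial chemokine, had 8 reads in IG and 1 in NG and was called lower. Both Ccl20 calls were lost when IG A, IG B, NG A or NG B was left out, and the Cxcl17 call when any library but NG A was.

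**Figure D1:**
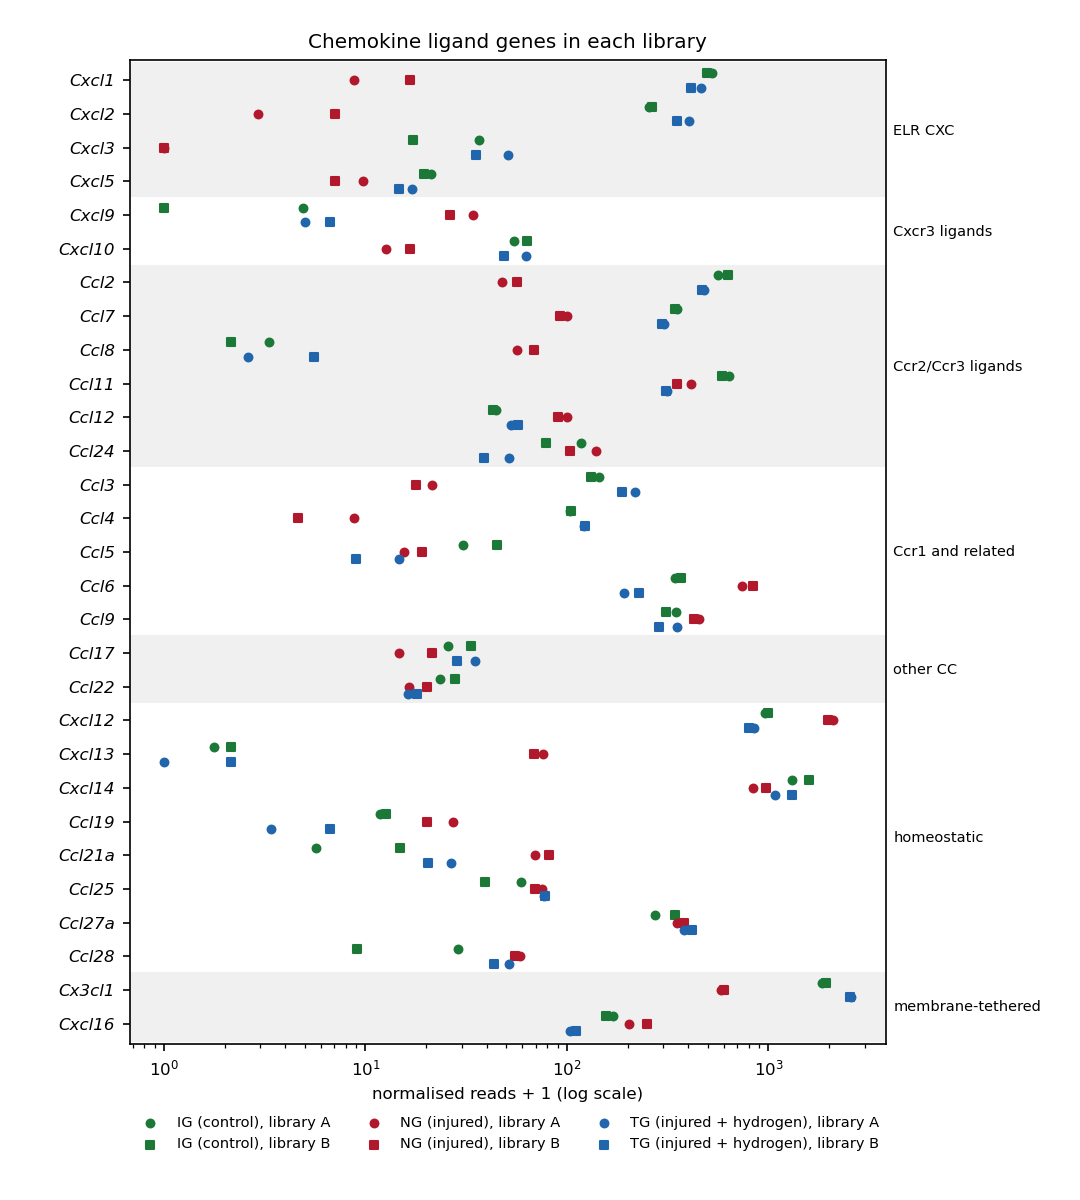
Normalised reads plus 1 (log scale) of the 29 chemokine ligand genes that reached 10 normalised reads in a library, by class, with one point for each library and no mean drawn. The NG points of Cxcl1, Cxcl2, Cxcl3, Ccl2, Ccl3 and Ccl4 lie to the left of all other points of the same gene, and those of Cxcl13, Ccl8 and Cxcl9 to the right.

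The ELR CXC chemokines carry the motif Glu-Leu-Arg before the first cysteine and draw neutrophils through Cxcr2. Within the naming rule the class has 5 genes, all on chromosome 5. Of these, 4 were lower in NG than in IG and none was higher, against 20.4% and 19.7% of all genes. Between NG and TG, 3 were higher in TG and none was lower, against 22.2% and 23.1% of all genes. Between IG and TG limma called no gene of the class and none had an unadjusted p under 0.05, while limma voom and the authors' deposited table each called 1.

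The stretches from 250 bases before to 50 bases after the start site of Cxcl1, Cxcl2 and Cxcl3 are shown because these genes had the largest falls in NG. They are RefSeq promoters of GRCm38.p6 (mm10), all on the plus strand, at chr5:90890995-90891294, chr5:90903649-90903948 and chr5:90785851-90786150. Capitals mark matches to a kB motif, the site read by NF-kB, and to TATAAA.
Cxcl1: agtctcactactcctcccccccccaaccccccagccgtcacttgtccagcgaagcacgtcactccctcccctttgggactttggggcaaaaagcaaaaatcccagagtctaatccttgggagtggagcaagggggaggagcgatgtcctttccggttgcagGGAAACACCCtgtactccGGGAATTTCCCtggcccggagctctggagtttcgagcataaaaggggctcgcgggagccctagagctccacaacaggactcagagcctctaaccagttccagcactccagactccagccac
Cxcl2: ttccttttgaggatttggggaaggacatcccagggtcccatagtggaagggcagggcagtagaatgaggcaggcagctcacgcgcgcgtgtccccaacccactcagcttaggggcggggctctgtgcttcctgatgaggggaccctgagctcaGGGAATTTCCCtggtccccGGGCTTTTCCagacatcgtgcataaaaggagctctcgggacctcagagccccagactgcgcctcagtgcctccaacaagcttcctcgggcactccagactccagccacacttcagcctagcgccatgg
Cxcl3: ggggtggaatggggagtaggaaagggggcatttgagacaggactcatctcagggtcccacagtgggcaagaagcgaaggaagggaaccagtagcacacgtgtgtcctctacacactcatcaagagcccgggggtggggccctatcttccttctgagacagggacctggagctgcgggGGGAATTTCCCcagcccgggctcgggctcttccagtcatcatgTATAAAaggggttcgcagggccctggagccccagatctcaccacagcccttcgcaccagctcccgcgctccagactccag

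The kB motif was searched on both strands in 2 forms, GGG then any 2 bases then TTTCC, and GGGA then any 3 bases then TCC. The run GGGAATTTCC, which matches both patterns, began at -71 in Cxcl1, -97 in Cxcl2 and -73 in Cxcl3, counted from the start site. Cxcl1 held a further match on the other strand that began at -89, and Cxcl2 one of GGGCTTTTCC at -78. The table held 33 promoters for 27 of the 37 ligand genes, and 8 of the 33 held a kB match, those of Cxcl1, Cxcl2, Cxcl3, Cxcl10, Ccl1, Ccl9, Ccl20 and Ccl22. Of all 32851 promoters of the same length, 5.75% held one. A match is a run of letters and does not show that a factor bound there. Promoters of Ccl2, Ccl4, Ccl5, Ccl7, Ccl11, Ccl24, Ccl26, Cxcl5, Cxcl16 and Cxcl17 were not analysed here.

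Cxcl1, the keratinocyte-derived chemokine KC, had 526 and 493 normalised reads in the A and B libraries of IG, 7.77 and 15.7 in those of NG, and 463 and 413 in TG. Every NG value lay far below every value of both other groups. For Cxcl1 the log2 fold change was -5.40 ± 0.27 for NG minus IG (adjusted p = 3.9e-06) and 5.18 ± 0.27 for TG minus NG (adjusted p = 2.2e-06). It was -0.22 ± 0.27 for TG minus IG (adjusted p = 0.67).

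Cxcl2, also called MIP-2, had 255 and 263 normalised reads in IG, 1.94 and 6.03 in NG, and 402 and 349 in TG. The 3 groups did not overlap, and TG was the highest. As a ratio of reads, NG was 68.6-fold below IG, with an exact 95% interval of 33.1 to 171 that covers counting error only. Cxcl2 had a log2 fold change of -5.84 ± 0.36 for NG minus IG (adjusted p = 9.2e-06) and 6.37 ± 0.36 for TG minus NG (adjusted p = 3.2e-06). With NG A or NG B left out, the first became -5.21 or -6.48 and the second 5.74 or 7.01. For TG minus IG it was 0.53 ± 0.36 (adjusted p = 0.45), a difference called in the authors' deposited table at an adjusted p of 0.0095.

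Cxcl3, a close relative of Cxcl2, had 35.6 and 16.2 normalised reads in IG, none in either NG library, and 49.9 and 34.2 in TG. Set against a floor of 3 reads over the NG group, the level was 17.3-fold lower in NG than in IG and 26.9-fold higher in TG than in NG. The exact 95% limits for counting error were lower than these floor values, at 13.6-fold and 21.4-fold. The adjusted p was 0.00011 for the first difference and 3.1e-05 for the second. Without IG A or IG B, the fitted log2 difference of NG from IG, -4.65, became -4.04 or -5.24.

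Cxcl5, also a Cxcr2 ligand, was lower in NG than in IG by a smaller amount. It had 20.1 and 18.6 normalised reads in IG, 8.75 and 6.03 in NG, and 16.1 and 13.7 in TG. For Cxcl5 the log2 fold change was -1.30 ± 0.37 for NG minus IG (adjusted p = 0.023) and 0.94 ± 0.37 for TG minus NG (adjusted p = 0.071). The call was lost without IG A, IG B, NG B or TG B. Cxcl15, the lung chemokine lungkine, had a single read, in TG B.

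Cxcl9 and Cxcl10, interferon-inducible chemokines that draw activated T cells through Cxcr3, went opposite ways in NG. Cxcl9 had 3.87 and 0 normalised reads in IG, 33.0 and 25.3 in NG, and 4.02 and 5.70 in TG. The NG libraries were the highest, and each library of IG and TG held at most 5 reads. Cxcl9 had a log2 fold change of 3.76 ± 0.71 for NG minus IG (adjusted p = 0.003) and -2.37 ± 0.71 for TG minus NG (adjusted p = 0.024). It was 4.83 or 2.62 for NG minus IG without IG A or IG B, and both Cxcl9 calls were lost without NG A, NG B, TG A or TG B.

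Cxcl10 had 53.4 and 62.6 normalised reads in IG, 11.7 and 15.7 in NG, and 61.9 and 47.9 in TG. Both NG values were below all others, and IG and TG overlapped. For Cxcl10 the log2 fold change was -2.02 ± 0.28 for NG minus IG (adjusted p = 0.00062) and 1.93 ± 0.28 for TG minus NG (adjusted p = 0.00059). Exons of Art3 on the opposite strand cover 5.91% of the exon bases of Cxcl10, and whether the counting kept the strands apart was not tested. The pair lies on chromosome 5 with 18559 bases between the genes.

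The Cxcl10 promoter is shown because Cxcl10, like the ELR genes, was lower in NG than in IG, and the promoters of Cxcl13 and Ccl8 because these genes were higher. They are at chr5:92348840-92349139 on the minus strand, chr5:95956689-95956988 on the plus strand and chr11:82114935-82115234 on the plus strand. Capitals mark matches to the kB motif, the interferon-stimulated response element (ISRE, searched as GAAA, any 2 bases and GAAA), the AP-1 motif TGANTCA and TATAAA.
Cxcl10: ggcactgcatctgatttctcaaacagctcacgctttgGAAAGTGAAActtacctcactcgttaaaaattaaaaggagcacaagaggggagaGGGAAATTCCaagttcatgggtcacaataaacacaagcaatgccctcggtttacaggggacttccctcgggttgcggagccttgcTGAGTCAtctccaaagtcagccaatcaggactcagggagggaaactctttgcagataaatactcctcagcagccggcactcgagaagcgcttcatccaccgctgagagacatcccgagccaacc
Cxcl13: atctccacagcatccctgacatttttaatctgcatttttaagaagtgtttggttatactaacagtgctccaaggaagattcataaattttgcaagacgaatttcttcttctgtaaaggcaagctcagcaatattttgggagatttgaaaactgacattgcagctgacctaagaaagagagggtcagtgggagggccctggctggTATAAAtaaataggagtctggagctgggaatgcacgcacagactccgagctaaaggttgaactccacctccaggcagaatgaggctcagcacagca
Ccl8: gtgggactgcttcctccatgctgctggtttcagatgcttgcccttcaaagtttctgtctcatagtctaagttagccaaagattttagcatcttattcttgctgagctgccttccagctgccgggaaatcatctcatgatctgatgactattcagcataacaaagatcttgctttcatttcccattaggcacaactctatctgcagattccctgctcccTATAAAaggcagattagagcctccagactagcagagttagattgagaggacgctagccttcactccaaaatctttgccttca

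Cxcl10 held an ISRE match at -213, a kB match at -159 and an AP-1 match at -74. In Cxcl13 and Ccl8 the sole match to these motifs was TATAAA, at -46 and -32. The ISRE pattern was found in 3 of the 33 promoters, those of Cxcl10, Cxcl14 and Ccl19, against 3.44% of all promoters. The AP-1 motif was in 7 of the 33 against 7.81%, and TATAAA in 9 of the 33 against 8.32%.

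The class of monocyte and eosinophil attractants, mostly ligands of Ccr2 and Ccr3, was split in NG, with Ccl2, Ccl7 and Ccl11 lower and Ccl8 and Ccl12 higher. Ccl2, the main attractant of inflammatory monocytes through Ccr2, had 562 and 626 normalised reads in IG, 46.6 and 55.4 in NG, and 479 and 466 in TG. The NG values were about an order of magnitude below those of both other groups, 11.6-fold below IG as a ratio of reads. Ccl2 had a log2 fold change of -3.52 ± 0.13 for NG minus IG (adjusted p = 9.9e-07), 3.19 ± 0.13 for TG minus NG (adjusted p = 8.1e-07) and -0.33 ± 0.13 for TG minus IG (adjusted p = 0.16).

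Ccl7, the monocyte chemokine whose gene follows Ccl2, had 352 and 342 normalised reads in IG, 99.1 and 91.6 in NG, and 303 and 296 in TG. The fall in NG was smaller than that of Ccl2. For Ccl7 the log2 fold change was -1.85 ± 0.12 for NG minus IG (adjusted p = 1.1e-05) and 1.64 ± 0.12 for TG minus NG (adjusted p = 1e-05).

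Ccl8, which in the mouse signals through Ccr8, had 2.32 and 1.16 normalised reads in IG, 55.4 and 67.5 in NG, and 1.61 and 4.56 in TG. Outside NG it held at most 4 reads in a library. The reads of NG were 32.7-fold above those of IG, with a counting interval of 12.4 to 122. Ccl8 had a log2 fold change of 4.54 ± 0.50 for NG minus IG (adjusted p = 0.00017) and -4.03 ± 0.50 for TG minus NG (adjusted p = 0.00023).

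Ccl12, a mouse Ccr2 ligand, had 43.4 and 41.8 normalised reads in IG, 99.1 and 89.2 in NG, and 51.5 and 55.9 in TG. The NG libraries were again the highest. For Ccl12 the log2 fold change was 1.13 ± 0.20 for NG minus IG (adjusted p = 0.0023) and -0.80 ± 0.20 for TG minus NG (adjusted p = 0.011), and the second call was lost without TG A.

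Ccl11, or eotaxin, which draws eosinophils through Ccr3, was highest in IG. It had 639 and 584 normalised reads in IG, 411 and 349 in NG, and 311 and 309 in TG. Ccl11 had a log2 fold change of -0.69 ± 0.11 for NG minus IG (adjusted p = 0.0014), a call lost without IG A. It was -0.29 ± 0.11 for TG minus NG (adjusted p = 0.067). For TG minus IG it was -0.98 ± 0.11 (adjusted p = 0.0011).

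Ccl24, a further eotaxin, had 117 and 77.7 normalised reads in IG, 138 and 102 in NG, and 50.7 and 37.7 in TG. The TG libraries were the lowest, and those of IG and NG overlapped. For Ccl24 the log2 fold change was -1.42 ± 0.27 for TG minus NG (adjusted p = 0.0025) and -1.11 ± 0.27 for TG minus IG (adjusted p = 0.034). The first call was lost when any one of NG A, NG B, TG A and TG B was left out.

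The inflammatory CC ligands Ccl3, Ccl4, Ccl5, Ccl6 and Ccl9, most of which bind Ccr1, were split as well. Ccl3, also called MIP-1 alpha, had 143 and 131 normalised reads in IG, 20.4 and 16.9 in NG, and 216 and 186 in TG. The groups did not overlap, with NG the lowest and TG the highest. Ccl3 had a log2 fold change of -2.82 ± 0.19 for NG minus IG (adjusted p = 1.5e-05), 3.36 ± 0.19 for TG minus NG (adjusted p = 3.4e-06) and 0.54 ± 0.19 for TG minus IG (adjusted p = 0.12).

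Ccl4, or MIP-1 beta, whose gene neighbours Ccl3, had 103 and 104 normalised reads in IG, 7.77 and 3.62 in NG, and 119.9 and 122 in TG. Its NG values were far below all others. For Ccl4 the log2 fold change was -4.04 ± 0.32 for NG minus IG (adjusted p = 3e-05) and 4.26 ± 0.32 for TG minus NG (adjusted p = 1.3e-05).

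Ccl6, a rodent chemokine that binds Ccr1, had 343 and 367 normalised reads in IG, 742 and 841 in NG, and 189.9 and 228 in TG. The groups did not overlap, with NG the highest and TG the lowest. Ccl6 had a log2 fold change of 1.15 ± 0.12 for NG minus IG (adjusted p = 0.00014), -1.92 ± 0.12 for TG minus NG (adjusted p = 5.8e-06) and -0.77 ± 0.12 for TG minus IG (adjusted p = 0.0058).

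Ccl9, its rodent relative, differed less. It had 345 and 309 normalised reads in IG, 450 and 427 in NG, and 352 and 285 in TG. For Ccl9 the log2 fold change was 0.43 ± 0.13 for NG minus IG (adjusted p = 0.029) and -0.47 ± 0.13 for TG minus NG (adjusted p = 0.017). Both calls were lost without IG A, IG B, NG A, NG B or TG B.

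Ccl5, or RANTES, a T cell and monocyte attractant, had 29.4 and 44.1 normalised reads in IG, 14.6 and 18.1 in NG, and 13.7 and 7.99 in TG. The IG libraries were the highest. Ccl5 had a log2 fold change of -1.10 ± 0.39 for NG minus IG (adjusted p = 0.053) and -0.59 ± 0.39 for TG minus NG (adjusted p = 0.27). For TG minus IG it was -1.69 ± 0.39 (adjusted p = 0.028).

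Ccl17 and Ccl22, which draw T cell subsets through Ccr4, were called in no comparison. Across the 6 libraries Ccl17 ranged from 13.6 to 33.8 normalised reads and Ccl22 from 15.3 to 26.7. For Ccl17 the log2 fold change was -0.73 ± 0.34 for NG minus IG (adjusted p = 0.12) and 0.83 ± 0.34 for TG minus NG (adjusted p = 0.078).

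**Figure D2:**
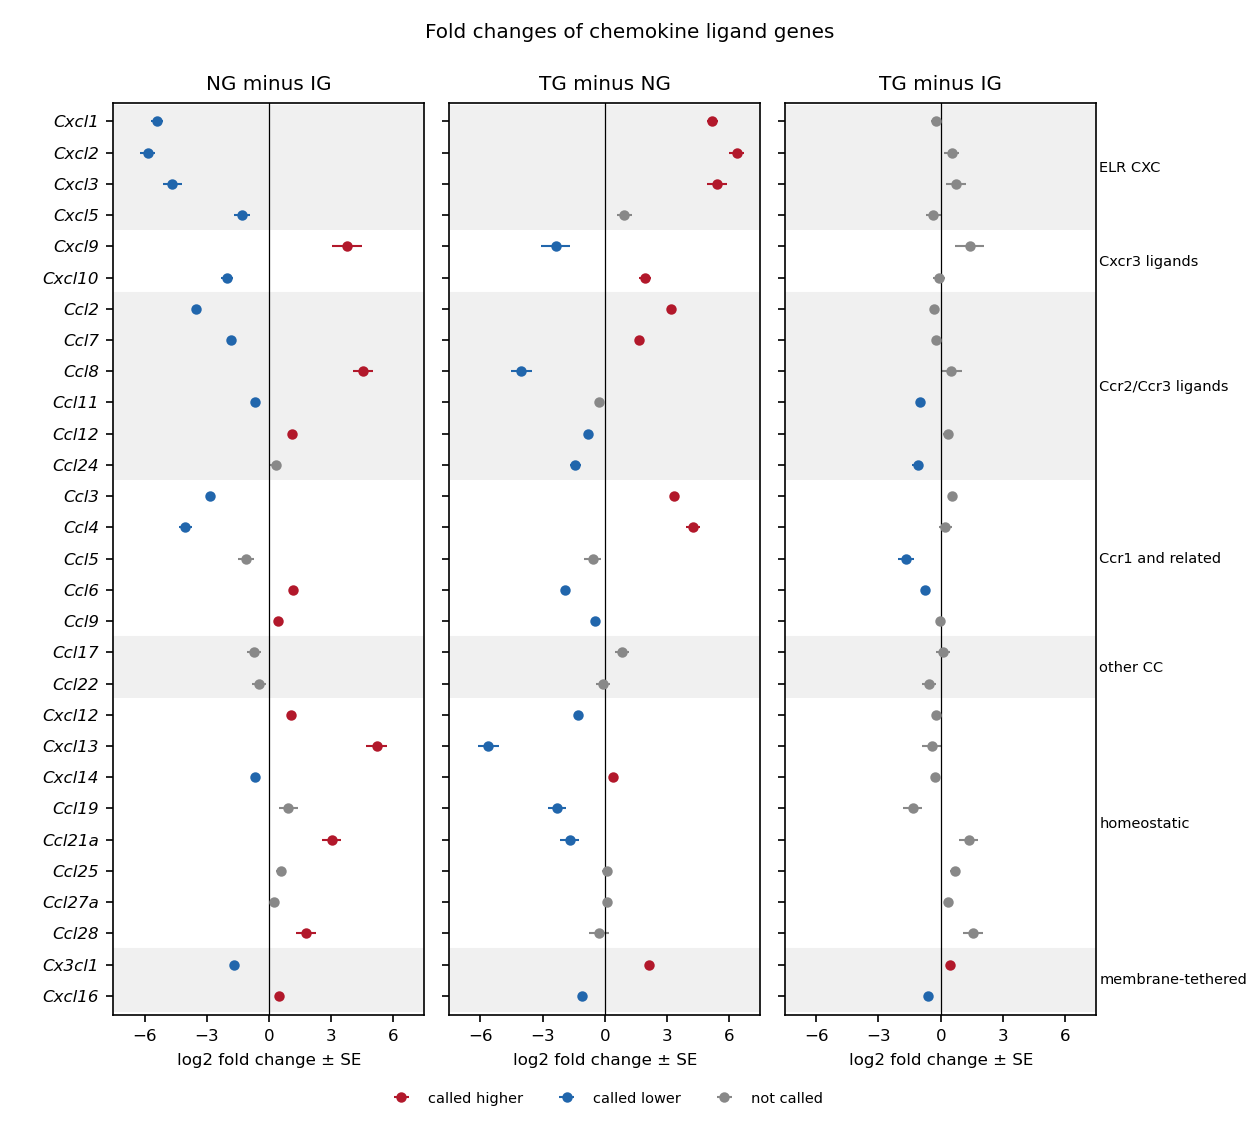
Log2 fold change with its SE for the same 29 genes in the 3 comparisons, by class, with colours for genes called higher, called lower or not called. In the panels for NG minus IG and TG minus NG the points spread from -5.84 to 6.37, and in the panel for TG minus IG they stay between -1.69 and 1.54.

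The homeostatic class has 11 genes, 10 of them with a read, of which 4 were higher and 2 lower in NG than in IG. The shares of all genes called were 19.7% and 20.4%, so that the lower count is near that of all genes. Cxcl12, which acts through Cxcr4 and is made by meningeal and stromal cells, had 965 and 997 normalised reads in IG, 2092 and 1984 in NG, and 844 and 799.8 in TG. Both NG values were about double those of the other groups. For Cxcl12 the log2 fold change was 1.05 ± 0.08 for NG minus IG (adjusted p = 2.1e-05), -1.31 ± 0.08 for TG minus NG (adjusted p = 4e-06) and -0.25 ± 0.08 for TG minus IG (adjusted p = 0.078).

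Cxcl13, the B cell attractant that binds Cxcr5, had 0.774 and 1.16 normalised reads in IG, 74.8 and 67.5 in NG, and 0 and 1.14 in TG. Outside NG it rested on 2 reads in IG and 1 in TG. As a ratio of reads, NG was 77.1-fold above IG, with a counting interval of 20.9 to 643. TG was 152-fold below NG, with an interval of 26.8 to 6030. Cxcl13 had a log2 fold change of 5.20 ± 0.50 for NG minus IG (adjusted p = 8e-05) and -5.62 ± 0.50 for TG minus NG (adjusted p = 3.2e-05), the latter becoming -6.21 without TG B.

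Cxcl14, a conserved chemokine of epithelia and brain, had the most reads per kilobase of exon of all ligands in both libraries of IG and NG and in TG B. In TG A it stood at 589.6 normalised reads per kb, below Cx3cl1 at 655. It had 1311 and 1587 normalised reads in IG, 841 and 976 in NG, and 1077 and 1301 in TG. The NG libraries were the lowest. For Cxcl14 the log2 fold change was -0.67 ± 0.13 for NG minus IG (adjusted p = 0.0037) and 0.39 ± 0.13 for TG minus NG (adjusted p = 0.041). The first call was lost when any one library but TG A was left out, and the second when any one library was.

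Ccl19 and Ccl21a bind Ccr7 and guide dendritic cells and T cells. Ccl19 had 10.8 and 11.6 normalised reads in IG, 26.2 and 19.3 in NG, and 2.41 and 5.70 in TG. It was lower in TG than in NG, by -2.30 ± 0.45 on the log2 scale (adjusted p = 0.0032), a call lost without NG A. For NG minus IG the log2 fold change was 0.94 ± 0.45 (adjusted p = 0.14). Ccl21a had 4.65 and 13.9 normalised reads in IG, 68.0 and 80.7 in NG, and 25.7 and 19.4 in TG.

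The NG libraries were the highest for Ccl21a, and the groups did not overlap. Its log2 fold change was 3.03 ± 0.46 for NG minus IG (adjusted p = 0.00094) and -1.69 ± 0.46 for TG minus NG (adjusted p = 0.016). The first was 2.32 or 3.74 without IG A or IG B. It was no longer called without NG A or NG B, and the second without NG A, NG B, TG A or TG B. Both genes have near copies on the genome, so that the authors' counting may have split or dropped reads. The transcript of Gm21541 matched the whole Ccl21a transcript at 99.31% identity, and that of Gm2564 matched 57.8% of Ccl19 at 98.9%.

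Ccl28, a mucosal ligand of Ccr10, had 27.9 and 8.12 normalised reads in IG, 57.3 and 54.2 in NG, and 50.7 and 42.2 in TG. The IG libraries were the lowest and differed most from each other. For Ccl28 the log2 fold change for NG minus IG was 1.81 ± 0.48 (adjusted p = 0.017). It was 2.63 without IG A and 0.97 without IG B. The call was lost without IG B, NG A, NG B, TG A or TG B.

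Ccl25, which draws thymocytes and gut T cells through Ccr9, and Ccl27a, a skin chemokine that binds Ccr10, were called in no comparison. Ccl25 ranged from 38.3 to 76.4 normalised reads over the 6 libraries. Ccl27a had 273 and 343 normalised reads in IG, 349.9 and 381 in NG, and 379 and 416 in TG. For Ccl27a the log2 fold change was 0.25 ± 0.13 for NG minus IG (adjusted p = 0.18). The transcript of Gm20878 matched 76.9% of that of Ccl27a at 98.6% identity, which makes the level of Ccl27a uncertain too.

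A pair of chemokines is made as membrane-tethered proteins that are cut from the cell surface, and these went opposite ways in all 3 comparisons. Cx3cl1, or fractalkine, which neurons make and microglia read through Cx3cr1, had 1832 and 1938 normalised reads in IG, 578 and 603 in NG, and 2573 and 2535 in TG. The groups did not overlap, with NG the lowest and TG the highest. Cx3cl1 had a log2 fold change of -1.67 ± 0.07 for NG minus IG (adjusted p = 2.5e-06), 2.11 ± 0.07 for TG minus NG (adjusted p = 4.6e-07) and 0.44 ± 0.07 for TG minus IG (adjusted p = 0.0074).

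Cxcl16, the ligand of Cxcr6 and a scavenger receptor, had 168 and 155 normalised reads in IG, 203 and 249 in NG, and 102 and 109.5 in TG. Here NG was the highest and TG the lowest. For Cxcl16 the log2 fold change was 0.48 ± 0.15 for NG minus IG (adjusted p = 0.037), -1.08 ± 0.15 for TG minus NG (adjusted p = 0.00047) and -0.61 ± 0.15 for TG minus IG (adjusted p = 0.039). The first call was lost without IG A, IG B, NG B, TG A or TG B. Exons of Zmynd15 on the opposite strand cover 18.3% of the exon bases of Cxcl16. Reads from both genes cannot be told apart there unless the counting kept the strands apart, which was not tested.

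The 6 genes called for TG minus IG were thus Cx3cl1, which was higher in TG, and Ccl5, Ccl6, Ccl11, Ccl24 and Cxcl16, which were lower. Without IG A, IG B, TG A or TG B no ligand gene was called by limma in this comparison, while 8 to 10 had an unadjusted p under 0.05 in those fits. Without NG A the count was 2 and without NG B it was 1, since the NG libraries also feed the shared spread. With limma voom it was 8.

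Summed, the ligand genes held 8277 and 8641 normalised reads in IG, 6546 and 6666 in NG, and 8265 and 8216 in TG. This was 0.0336% to 0.0473% of the reads of a library. The make-up of the sum differed more than its size. ELR CXC genes took 10.1% and 9.16% of ligand reads in IG, 0.282% and 0.416% in NG, and 11.3% and 9.87% in TG.

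Homeostatic genes took 32.1% and 34.8% of ligand reads in IG, 54.8% and 54.5% in NG, and 29.7% and 32.4% in TG. Cxcl12 alone took 32.0% and 29.8% in NG, against 9.73% to 11.7% in the other libraries. Cx3cl1 took 8.83% and 9.04% in NG, 22.1% and 22.4% in IG, and 31.1% and 30.9% in TG. Longer transcripts give more reads, so these shares are of reads and not of molecules.

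**Figure D3:**
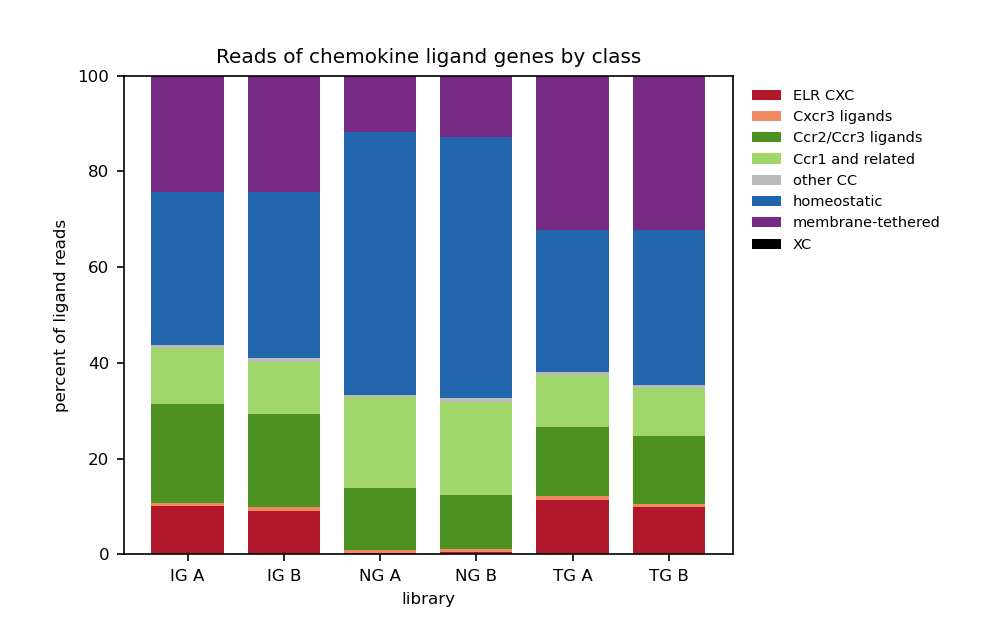
Percent of all chemokine ligand reads that fell on each class of ligand, as stacked bars from 0 to 100%, for each library. In NG A and B the ELR CXC class shrinks to 0.282% and 0.416% and the homeostatic class grows to 54.8% and 54.5%.

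Per kilobase of exon, the order of the ligands also changed between groups. In IG the highest levels were 793 normalised reads per kb for Cxcl14, 565 for Ccl11, 522 for Ccl2, 479.8 for Cx3cl1 and 434 for Ccl7. In NG they were 497 for Cxcl14, 441 for Ccl6, 351 for Ccl11, 249 for Cxcl12 and 175 for Ccl12. In TG they were 651 for Cxcl14 and 649.9 for Cx3cl1, whose order differs between the TG libraries, 415 for Ccl2, 374 for Ccl7 and 286 for Ccl11. Cxcl1 stood at 272 normalised reads per kb in IG, 6.25 in NG and 234 in TG.

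Neighbouring genes of one cluster did not always move alike. On chromosome 11, Ccl2, Ccl7, Ccl11, Ccl12, Ccl8 and Ccl1 follow each other in that order from position 82035571 to 82305690 of mm10. The first 3 were lower in NG than in IG, Ccl12 and Ccl8 were higher, and Ccl1 had 3.62 normalised reads at most. The next group starts 1220088 bases further on and runs from 83525778 to 83664683, with Ccl5, Ccl9, Ccl6, Ccl3 and Ccl4. There Ccl9 and Ccl6 were higher in NG, while Ccl3 and Ccl4, with 13229 bases between them, were lower.

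The ELR genes of the naming rule lie on chromosome 5 from 90759360 to 90905938 in the order Cxcl5, Cxcl3, Cxcl15, Cxcl1 and Cxcl2. Those called for NG minus IG were all lower. Ppbp, a Cxcr2 ligand outside the naming rule, lies in the same stretch and was higher in NG. Its log2 fold change for NG minus IG was 2.31 ± 0.23 (adjusted p = 8.4e-05). On chromosome 8, Cx3cl1 lies between Ccl22 and Ccl17, from 94745590 to 94812036. Cx3cl1 was called in all 3 comparisons and its neighbours in none.

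**Figure D4:**
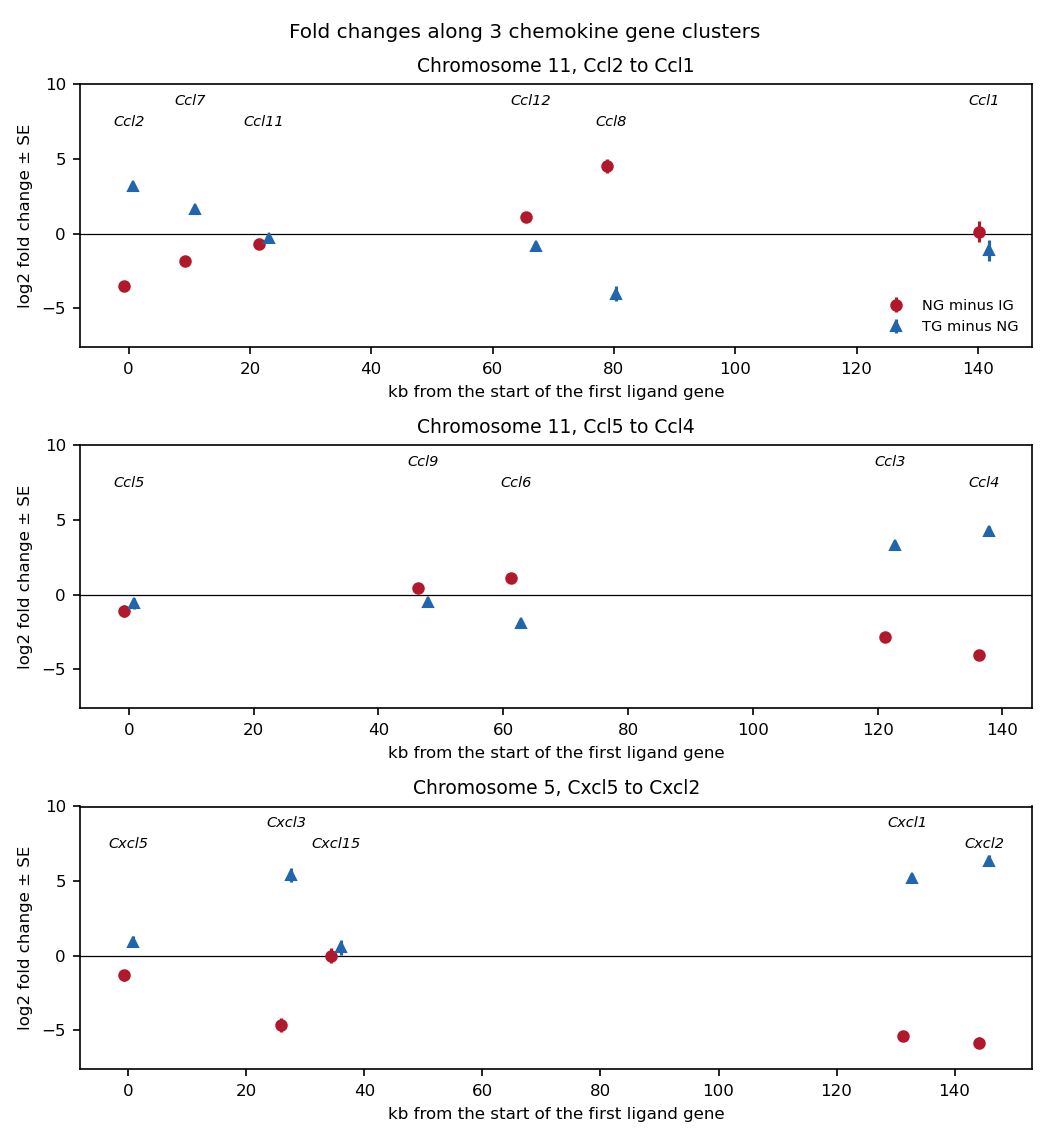
Log2 fold change with its SE for NG minus IG and TG minus NG against the distance in kb from the start of the first ligand gene of 3 clusters. Along the first cluster NG minus IG runs from -3.52 for Ccl2 to 4.54 for Ccl8. Along the ELR cluster every drawn gene with more than 1 read lies below 0 for NG minus IG. Ppbp, which lies in that stretch, is not drawn.

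The receptors of these ligands were read on the same scale. Of 23 receptor genes, 22 had a read, and 9 were higher and 4 lower in NG than in IG. Between NG and TG, 3 were higher in TG and 10 lower, and between IG and TG none was higher and 4 were lower. The shares of all genes called higher and lower were 19.7% and 20.4% for NG minus IG, 22.2% and 23.1% for TG minus NG, and 4.16% and 7.18% for TG minus IG, so that 4 lower of 22 in NG is near the share of all genes. Cxcr2, the receptor of the ELR chemokines on neutrophils, had 101 and 111 normalised reads in IG, 305 and 264 in NG, and 63.6 and 73.0 in TG. Cxcr2 had a log2 fold change of 1.41 ± 0.16 for NG minus IG (adjusted p = 0.0002) and -2.04 ± 0.16 for TG minus NG (adjusted p = 1.7e-05).

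Ccr2, the receptor of Ccl2 on monocytes, had 116 and 62.6 normalised reads in IG, 387 and 353 in NG, and 42.6 and 42.2 in TG. For Ccr2 the log2 fold change was 2.10 ± 0.27 for NG minus IG (adjusted p = 0.00034) and -3.09 ± 0.27 for TG minus NG (adjusted p = 2.6e-05), and the first call was lost without NG A. Cxcr2 and Ccr2 were thus highest in the libraries where Cxcl1, Cxcl2 and Ccl2 were lowest. Cxcr4, the receptor of Cxcl12, had 258 and 256 normalised reads in IG, 562 and 511 in NG, and 119.9 and 130.1 in TG. Cxcr4 had a log2 fold change of 1.06 ± 0.12 for NG minus IG (adjusted p = 0.00015) and -2.09 ± 0.12 for TG minus NG (adjusted p = 2.8e-06), so that Cxcr4 and Cxcl12 were both highest in NG.

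Cx3cr1, the microglial receptor of Cx3cl1, had 893 and 905 normalised reads in IG, 769 and 813 in NG, and 870.4 and 931 in TG, and was called in no comparison. Among the atypical receptors, which take up chemokines without signalling to migration, Ackr4, a scavenger of Ccl19 and Ccl21, had 19.4 and 13.9 normalised reads in IG, 189 and 152 in NG, and 9.65 and 9.13 in TG. Ackr4 was the receptor with the largest log2 fold change in NG, 3.29 ± 0.29 (adjusted p = 5.2e-05).

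Ackr1, the blood group receptor that binds many inflammatory chemokines, had 423 and 368 normalised reads in IG, 103 and 128 in NG, and 282 and 275 in TG. For Ackr1 the log2 fold change was -1.77 ± 0.14 for NG minus IG (adjusted p = 3.2e-05) and 1.27 ± 0.14 for TG minus NG (adjusted p = 0.00012). Ackr3, the scavenger of Cxcl12, had 746 and 787 normalised reads in IG, 620 and 600.1 in NG, and 568 and 542 in TG, and was lower in both NG and TG than in IG. Ccrl2 was also lower in NG than in IG, and Ccr3, Ccr6, Ccr10, Cxcr3 and Cxcr5 were higher. For NG minus IG the calls of Ackr3, Ccr3, Ccr6, Cxcr3 and Cxcr5 were each lost without some single library, and that of Ccr10 held. Cxcr3 rested on 3 reads in IG and 20 in NG. Ccr7 and Cxcr6 were lower in TG than in NG and not called for NG minus IG. The Ccr7 call was lost whichever library was left out, and the Cxcr6 call without TG A or TG B. Ccr1, Ccr9 and Ackr2 were called in no comparison. Leaving out IG B, NG A or NG B brought the receptor calls for NG minus IG from 13 to 8, and leaving out TG A or TG B brought those for TG minus NG from 13 to 7. Calls of Cxcr2, Cxcr4, Ccrl2, Ackr1 and Ackr4 in these comparisons held with each library left out, while all 4 calls for TG minus IG were lost in some of these fits.

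**Figure D5:**
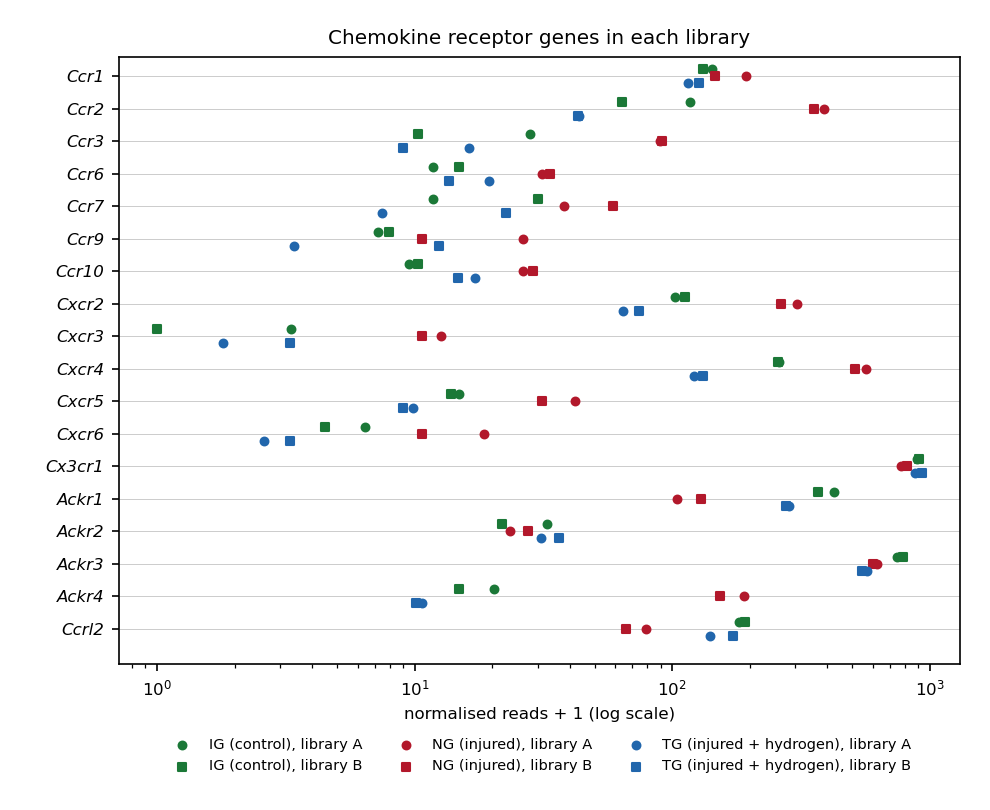
Normalised reads plus 1 (log scale) of 18 chemokine receptor genes that reached 10 normalised reads in a library, with one point for each library and no mean drawn. The NG points of Ackr4, Ccr2, Cxcr2 and Cxcr4 lie to the right of all other points of the same gene, those of Ackr1 and Ccrl2 to the left, and those of Cx3cr1 close to the rest.

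Genes of the pathways that switch chemokines on were described beside them. Of 20 genes that NF-kB induces or that make up its own feedback, 13 were lower in NG than in IG and none was higher, against 20.4% and 19.7% of all genes. For TG minus NG 10 were higher and 3 lower, against 22.2% and 23.1%, so that the lower count is not above the share of all genes. For TG minus IG 9 were lower and none higher, against 7.18% and 4.16%. Each of these 9 calls was lost when IG A, IG B, TG A or TG B was left out. Il6, the acute phase cytokine, had 227 and 234 normalised reads in IG, 1.94 and 2.41 in NG, and 173 and 149 in TG. Its log2 fold change for NG minus IG was -6.19 ± 0.23 (adjusted p = 9.8e-07).

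Il1a, a cytokine that itself induces Cxcl1 and Cxcl2, followed with -3.92 ± 0.18 (adjusted p = 2.8e-06). The smallest falls among the called genes were those of Nfkb1, the p50 precursor, at -0.25 ± 0.08 (adjusted p = 0.036), and Nfkbib, an inhibitor of NF-kB, at -0.61 ± 0.16 (adjusted p = 0.014). The calls of Il6 and Il1a held with each library left out, that of Nfkb1 was lost unless NG A was the one left out, and that of Nfkbib was lost each time.

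Of 16 genes of interferon induction, 15 were found, and 7 were higher and 1 lower in NG than in IG, against 19.7% and 20.4% of all genes. The highest log2 fold changes were 1.32 ± 0.19 for Irf7 (adjusted p = 0.0007) and 1.27 ± 0.14 for Irf8 (adjusted p = 0.00016), both interferon regulatory factors. The lowest called were -1.57 ± 0.12 for Gbp2, an interferon-induced GTPase (adjusted p = 2.1e-05), and 0.53 ± 0.11 for Irf1 (adjusted p = 0.0048). For TG minus NG 11 were lower and none higher, against 23.1% and 22.2% of all genes. For TG minus IG 4 were lower and none higher, against 7.18% and 4.16%. Each of these 4 calls was lost when IG A, IG B, TG A or TG B was left out. Ifng, which induces Cxcl9, had 0 reads in IG and NG and 2.28 normalised reads in TG B.

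Of 8 proteases that shed or cut chemokines, 3 were higher and 1 lower in NG than in IG, against 19.7% and 20.4% of all genes, and with so few genes these counts are not read as a result about the list. The called genes were Mmp9 at 1.84 ± 0.11 (adjusted p = 8.6e-06), Mmp8, the neutrophil collagenase, at 1.32 ± 0.13 (adjusted p = 0.0001), Mmp2 at 0.50 ± 0.09 (adjusted p = 0.0028), and Adam17, a sheddase of Cx3cl1, at -0.31 ± 0.08 (adjusted p = 0.017). The Mmp2 call was lost without IG A or NG B, and the Adam17 call without IG A, IG B or NG B. For TG minus NG 6 were lower and none higher, against 23.1% and 22.2% of all genes. For TG minus IG 4 were lower and none higher, against 7.18% and 4.16%. Each of these 4 calls was lost when IG A, IG B, TG A or TG B was left out.

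Markers of cell types other than neurons moved with the groups, and their part in the ligand results was not tested. Of all genes, 19.7% were called higher and 20.4% lower for NG minus IG, and 22.2% and 23.1% for TG minus NG. All 10 neuron markers were lower in NG than in IG and all 10 were higher in TG than in NG, with summed levels of 75057 to 76776 normalised reads in IG, 42226 to 44391 in NG and 89309 to 91961 in TG. All 10 neutrophil markers were higher in NG than in IG and lower in TG than in NG, with sums of 9094 to 9124, 34895 to 36166 and 3055 to 3405. Of 10 markers of T, NK and B cells, 8 were higher in NG than in IG and all were lower in TG than in NG, with sums of 540.4 to 602, 1565 to 1617 and 204 to 226. These leukocytes carry Cxcr2, Cxcr3 and Cxcr5. The neutrophil list includes Cxcr2 and Mmp8, whose values are those given above, so the list and these genes are not independent of each other.

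Of 14 microglia and macrophage markers, 6 were higher and 1 lower in NG than in IG, and 1 was higher and 9 lower in TG than in NG. The shares of all genes were 19.7% and 20.4% for the first, and 22.2% and 23.1% for the second. Cx3cr1, given above as a receptor, is also in this list. The sum of the 14 markers was 8639.8 to 8834 normalised reads in IG, 9357 to 10083 in NG and 7490.5 to 7579 in TG. This was a narrower range than that of the neutrophil markers. Of 10 fibroblast and meningeal markers, 8 were higher and 2 lower in NG than in IG, with sums of 41308 to 41603, 122393 to 122640.2 and 19029.9 to 19499.6. Of 9 endothelial markers, 7 were higher and 1 lower in NG, with sums of 4679.9 to 5002, 7686 to 7771 and 4488 to 4689. Of 10 astrocyte markers, 1 was higher and 9 were lower in NG, with sums of 147661 to 148863, 103478 to 103614 and 127474 to 128661.

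Markers of tissues outside the spinal cord were present as well. For NG minus IG, the shares of all genes called were again 19.7% higher and 20.4% lower. All 8 adipocyte markers were higher in NG than in IG, with sums of 1073 to 1104 normalised reads in IG, 22989.9 to 25286 in NG and 721 to 737 in TG. Of 8 skeletal muscle markers, 7 were higher in NG than in IG, with sums of 9079 to 9348, 82895 to 87079 and 12182 to 12335. All 8 liver markers were lower in NG than in IG, with sums of 18834 to 19947, 63.9 to 64.1 and 44.5 to 45.9. No marker of any list was without a read in all libraries.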

How the data were processed

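Per the labels' protocols, RNA was taken with Trizol and libraries were built with a TruSeq kit from Illumina. Bowtie2 2.0.6, HTSeq 0.6.1 and mm10 are named in the submitters' processing notes, and the counting settings are not stated there. As deposited by the authors, the data are 3 tables, one for each pair of groups, with a normalised signal (the mean over a group's libraries of reads divided by a size factor), a log2 fold change and the p-value before and after adjustment, per the file headers and the values. Since each group stands in 2 tables with different factors, reads of each library were recovered by solving 2 equations for a gene. All 35275 genes (100.0%) gave whole reads within 0.001 in every group. The main test was limma on normalised reads, with limma voom on the recovered reads as an alternative.

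Reads of all 6 libraries were scaled together by median-of-ratios size factors, and log2 of normalised reads plus 1 was fitted with limma 3.58.1 in R 4.3.3, with one mean for each group and a variance trend. The 24511 genes with a read were tested, with 3 residual and 5.23 prior degrees of freedom and a two-sided Benjamini-Hochberg adjusted p. On this scale the fold change of low genes is understated. The script was tested on simulated data. In the simulation of the fit the changed genes were not low ones, so it does not bear on calls of low genes. Symbols and exon lengths came from GENCODE M21 (34490 of 35275 IDs) and promoters from RefSeq. Every ligand gene is named, those with 10 normalised reads in a library are described, as are receptors at that level except 1 that is not reported here, and for each pathway list the called genes at both ends of NG minus IG. The ligand genes and all lists were chosen with earlier results of these data known.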

Additional observations from a re-analysis of the deposited data

How the results depend on the processing

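No paired analysis was possible because the deposited columns carry no library numbers, so a replicate block could not be fitted. Of the ligand calls, 14 of 24 for NG against IG, 14 of 22 for TG against NG and 0 of 6 for TG against IG held under every alternative run (pseudocounts of 0.5 and 5, a filter at a mean of 10 normalised reads, no filter, other scalings, no variance trend, limma voom, fewer libraries), and no called value changed sign. The ligand count ranged from 17 to 25 for NG against IG and from 15 to 23 for TG against NG. For TG against IG it fell from 6 to 2 with no filter and 1 with no variance trend, and to 0 to 2 with one library left out. Receptor calls with no filter were 7 for NG against IG, 8 for TG against NG and 2 for TG against IG, where a pseudocount of 5 gave 2 and no variance trend gave 1. With one library left out they were 8 to 10, 7 to 10 and 0 to 1, the last with 3 to 7 at an unadjusted p under 0.05 in limma. Over all genes the TG against IG calls fell from 2779 to between 0 and 1012 with one library left out, and 36.7% of calls were higher in TG in the fit reported, against 24.4% with scaling to total reads. A library left alone in its group is assumed to vary like the others. Uncalled values that changed sign with one library left out ranged, for TG minus IG, from -0.04 to 1.04 for Ccl8, -0.19 to 0.11 for Ccl9 (0.03 without IG A), -0.99 to 0.13 for Cxcl13, -0.09 to 0.28 for Ccl17 (-0.05 without TG A) and -0.27 to 0.10 for Cxcl10 (0.02 without IG B), and for TG minus NG from -0.24 to 0.05 for Ccl22. A pseudocount of 5 brought low genes nearer to 0, such as Cxcl13 at 3.67, Cxcl3 at -2.55 and Ccl8 at 3.30 for NG minus IG. The cause of other changes was not tested. With 2 libraries a group, small differences could not be told from noise.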

Other observations

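Genes of the chemokine family whose symbols fall outside the naming rule were read as well, and were looked at with the ligand results known. Ppbp, the platelet basic protein and a Cxcr2 ligand, lies between Cxcl5 and Cxcl3 on chromosome 5 and had 71.2 and 59.2 normalised reads in IG, 308 and 345 in NG, and 45.9 and 30.8 in TG. Pf4, the platelet factor 4 made by megakaryocytes and some macrophages, is its neighbour and had 166 and 164 normalised reads in IG, 650.2 and 607 in NG, and 111 and 127 in TG. Both were highest in NG, where Cxcl1, Cxcl2 and Cxcl3 of the same cluster were lowest. Cxcl11, which GENCODE M21 lists as a polymorphic pseudogene, ranged from 6.96 to 27.7 normalised reads.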
